A study of Mus musculus with 20 samples.

Results

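Calcineurin and NFAT genes were followed in cultured mouse dorsal root ganglion (DRG) neurons that fired in different temporal patterns. The members were 10 genes, taken by exact gene name in the array annotation: the calcineurin subunits Ppp3ca, Ppp3cb, Ppp3cc and Ppp3r1, the transcription factors Nfatc1, Nfatc2, Nfatc3 and Nfatc4, and the calcineurin inhibitors Rcan1 and Rcan2. They are 10 of the 30222 gene names on the array and are read by 15 of its 39429 probes.

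Neurons were prepared from NIH Swiss embryos labelled E13.5 and grown in compartmented chambers with nerve growth factor and an agent against dividing non-neuronal cells, and nerve growth factor and serum were withdrawn the night before use. Total RNA was measured on 10 Agilent two-colour arrays carrying probes of 60 bases. There were 5 conditions with 4 samples each. Unstimulated cultures were handled like the rest but not connected to the stimulator, and the others received a burst of 18 action potentials each 1 min (the 18/1 pattern) or a longer burst of 90 at intervals of 5 min (the 90/5 pattern), for 2 hr or 5 hr, so that both patterns delivered action potentials at the same average rate. The methods call the samples biological replicates and each condition a pool of cultures, without saying how cultures were divided between the 4 samples, so p-values measure the spread between these samples, part of which may be technical. The labels name DRG neurons, whereas the growth protocol speaks of spinal cords. Each of the 20 samples had all 13 sensory neuron markers at 2 times the background or more. None of 10 markers of spinal cord neurons and glia reached this in every sample, though each did in at least 1.

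Each array held 2 samples of 1 condition, on 3 slides. Unstimulated and 18/1 2 hr samples shared slide 1, 18/1 5 hr and 90/5 2 hr samples shared slide 2, and 90/5 5 hr samples were alone on slide 3. A difference within a slide can therefore be had only for 18/1 2 hr against unstimulated cultures and for 90/5 2 hr against 18/1 5 hr. In every other comparison condition and slide cannot be told apart. Slide 2 stood apart: the median spot was 3.64 to 10.4 times its background there, against 2.27 to 2.94 on slide 1 and 2.66 to 4.91 on slide 3, and 45 to 14642 of 43020 spots per sample were marked non-uniform, against 6 to 36 and 37 to 85. Saturated spots numbered 840 to 2800 per sample on slide 2, 0 to 486 on slide 1 and 0 on slide 3. As the replicate in each colour is not settled by the labels for 18/1 5 hr and 90/5 2 hr, these samples are named by array and colour.

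Calcineurin is the phosphatase that calcium and calmodulin switch on. A catalytic A subunit, encoded by Ppp3ca, Ppp3cb or Ppp3cc, pairs with a calcium-binding B subunit, encoded by Ppp3r1, and the active enzyme removes phosphates from NFAT proteins, which then enter the nucleus and bind DNA at sites with the core GGAAA. Rcan1 and Rcan2 bind calcineurin and restrain it, and a short form of Rcan1 made from an internal start is itself a known NFAT target, which closes a feedback loop. In sensory neurons the pathway is known as a route from firing, calcium entry and neurotrophins to transcription.

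The sequence before 3 transcription starts is shown, for the inhibitor with that feedback loop and for the catalytic gene Ppp3cb. Windows cover the 250 bases before a RefSeq start in GRCm38.p6, read 5′ to 3′ on the strand of the gene, and capitals mark the NFAT core GGAAA on either strand (TTTCC on the printed one). The upstream Rcan1 window lies at chr16:92466170-92466419, the internal Rcan1 window at chr16:92400079-92400328 and the Ppp3cb window at chr14:20546574-20546823, all on the minus strand.
Rcan1 upstream start: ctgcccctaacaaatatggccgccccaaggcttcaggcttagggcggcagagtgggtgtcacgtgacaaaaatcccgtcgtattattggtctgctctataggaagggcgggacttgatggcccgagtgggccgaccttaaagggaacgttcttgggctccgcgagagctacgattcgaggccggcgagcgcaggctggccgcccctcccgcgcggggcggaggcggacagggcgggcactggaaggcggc
Rcan1 internal start: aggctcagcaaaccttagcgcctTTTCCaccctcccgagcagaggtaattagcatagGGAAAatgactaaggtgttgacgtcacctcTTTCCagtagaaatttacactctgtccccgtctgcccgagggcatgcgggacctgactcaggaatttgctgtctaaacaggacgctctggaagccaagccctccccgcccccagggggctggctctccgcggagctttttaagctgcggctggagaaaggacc
Ppp3cb start: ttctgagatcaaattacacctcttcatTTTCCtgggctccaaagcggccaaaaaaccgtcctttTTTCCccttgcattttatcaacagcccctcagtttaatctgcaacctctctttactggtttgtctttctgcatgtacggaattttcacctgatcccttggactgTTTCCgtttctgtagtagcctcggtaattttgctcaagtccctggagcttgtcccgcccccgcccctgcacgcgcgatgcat
The window before the internal Rcan1 start holds 3 core matches, whose first bases lie at -227, -193 and -163 from the start, and the window before the upstream start holds 0. The internal window also holds 1 match to the cyclic AMP response element TGACGTCA, at -175, and 1 to the AP-1 motif TGANTCA, at -110. Neither overlaps a core match. The Ppp3cb window holds 3 core matches. The core is short and common: 55.6% of 32851 RefSeq windows of the same length hold at least 1 match on either strand, against 6.75% for TGANTCA and 1.55% for TGACGTCA. A match is a description of the letters and no evidence of binding. RefSeq windows were at hand for 7 of the members, 12 windows in all, and for the rest they hold 3 and 1 core matches (Nfatc2), 3 (Nfatc4), 1 and 0 (Nfatc3), 2, 0 and 0 (Rcan2) and 0 (Ppp3r1).

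Values are log2 signals after background correction and normalization. They compare samples for 1 probe, and levels are not set against each other between genes. Of the 10 members, 5 passed the filter on bright and uniform spots in all 20 samples (Ppp3ca, Ppp3cb, Ppp3cc, Rcan1 and Rcan2), as did 10355 genes in all. Ppp3r1, Nfatc1, Nfatc2, Nfatc3 and Nfatc4 did not, and their values come from the same model fitted to all 30222 genes. Ppp3r1 and Nfatc4 were bright in every sample and failed on 2 non-uniform spots each, both in 18/1 5 hr samples of array 5. Nfatc1, Nfatc2 and Nfatc3 failed on dim spots. A gene was called where its adjusted p in limma, after Benjamini-Hochberg adjustment over all genes of the fit, was below 0.05.

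Of 6 genes listed as checks of stimulation 3 passed the filter, and limma called 1 of these higher than in unstimulated cultures in each 18/1 condition and 2 in each 90/5 condition. Nr4a1, an activity-induced nuclear receptor, rose by 4.54 on the log2 scale in 18/1 2 hr, 4.44 in 18/1 5 hr, 4.76 in 90/5 2 hr and 5.51 in 90/5 5 hr, with limma adjusted p values of 4.33e-07, 1.65e-07, 1.74e-07 and 1.03e-08 (4 samples against 4 each). No calcineurin or NFAT gene was called in 18/1 2 hr or in 90/5 5 hr against unstimulated cultures. Of all genes, 0.0193% and 0.0676% past the filter were called there, and 0.00662% and 0.0563% without it. The called differences of the members all involve the 2 conditions on slide 2.

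**Figure D1:**
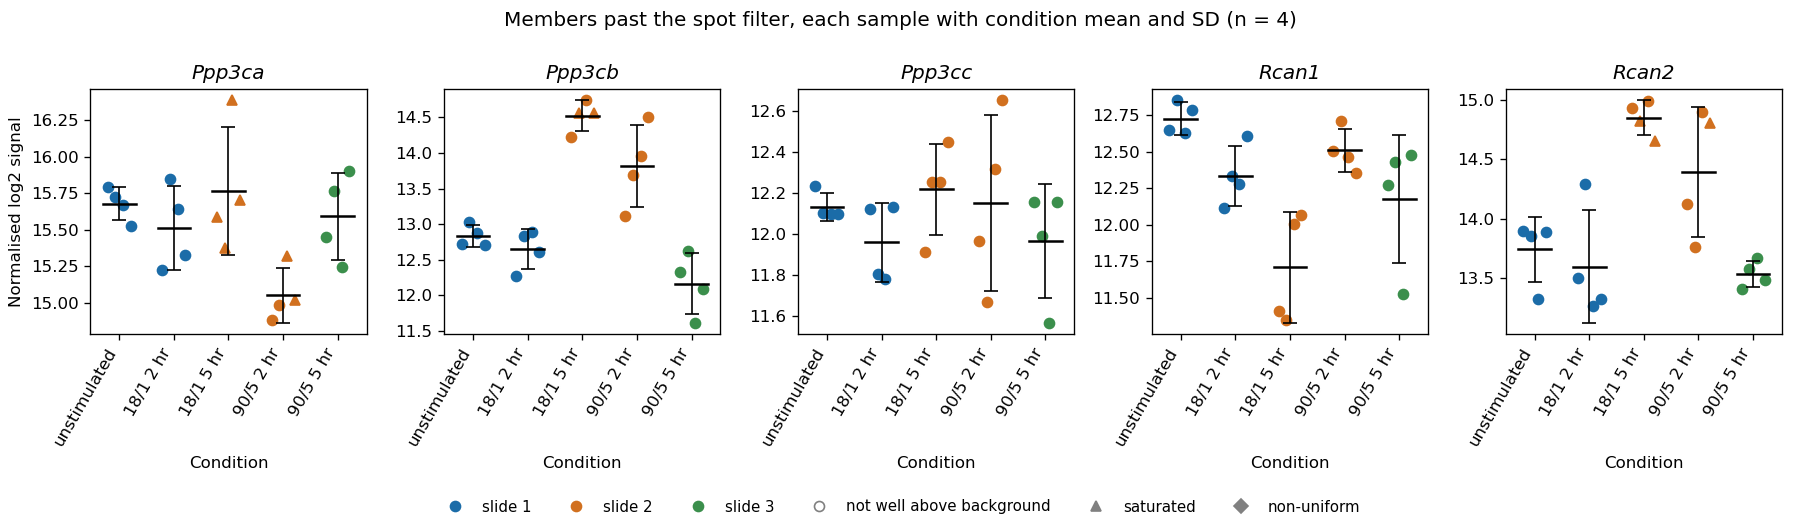
Normalized log2 signal (y axis) of the 5 members past the filter in each of the 20 samples, by condition (x axis, coloured by slide), with the condition mean and SD as bars. The 4 samples of 18/1 5 hr lie above all unstimulated samples for Ppp3cb and Rcan2 and below them for Rcan1, and for Ppp3ca all 4 of them were saturated.

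Of the catalytic subunits, Ppp3cb, which encodes the beta form, varied more between conditions than Ppp3cc, with Ppp3ca not ranked because of its saturated spots. It is read by a probe at chr14:21319265-21319324 (mm9, minus strand; here and below no mm9 annotation of exons was used). Its log2 signals were 12.72, 13.03, 12.87 and 12.71 in unstimulated cultures, 12.27, 12.83, 12.89 and 12.60 after 18/1 2 hr, and 12.33, 12.63, 11.61 and 12.08 after 90/5 5 hr. On slide 2 they were 14.22 and 14.57 (array 5, Cy3 and Cy5) and 14.74 and 14.57 (array 6) after 18/1 5 hr, and 13.11 and 13.69 (array 7) and 13.96 and 14.50 (array 8) after 90/5 2 hr. Every sample of slide 2 was above every sample of slides 1 and 3, and the 90/5 5 hr samples were all below the unstimulated ones. Both Cy5 spots of 18/1 5 hr were saturated, so that their values are lower limits.

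Ppp3ca, the alpha form and the main catalytic subunit of brain, is read at chr3:136598682-136598741 (mm9, plus strand). Its signals were 15.79, 15.73, 15.67 and 15.53 in unstimulated cultures and 15.23, 15.85, 15.64 and 15.33 after 18/1 2 hr. They were 15.45, 15.77, 15.24 and 15.90 after 90/5 5 hr. All these samples overlapped. After 90/5 2 hr they were 14.88 and 14.98 (array 7) and 15.32 and 15.02 (array 8, both saturated). The samples of array 7 lay below the unstimulated range, and the values of array 8 are lower limits. After 18/1 5 hr they were 15.59 and 15.37 (array 5) and 16.39 and 15.70 (array 6), all 4 saturated. With these spots at their values the difference from the unstimulated mean was 0.09, and without array 6 it was -0.20, so neither a direction nor a fold is given.

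Ppp3cc, the gamma form, known best from testis, had the closest condition means of the members past the filter. Its brighter probe, at chr14:70617749-70617808 (mm9, minus strand), read 12.23, 12.10, 12.10 and 12.10 in unstimulated cultures, and its condition means were 11.96 ± 0.19 after 18/1 2 hr, 12.22 ± 0.22 after 18/1 5 hr, 12.15 ± 0.43 after 90/5 2 hr and 11.97 ± 0.28 after 90/5 5 hr (SD, n = 4). No condition stood clear of another that is next to it in order. The second probe, at chr14:70623599-70623658, was near background, with condition means of 6.56 to 7.15.

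Ppp3r1, the regulatory B subunit (chr11:17100263-17100322, mm9, plus strand), read 14.36, 14.47, 14.14 and 14.29 in unstimulated cultures, 13.76, 14.27, 14.15 and 13.79 after 18/1 2 hr and 13.91, 14.18, 13.87 and 14.20 after 90/5 5 hr. In 18/1 5 hr the arrays disagreed: array 5, where both spots were marked non-uniform, gave 13.55 and 14.12, and array 6 gave 15.04 and 14.68, the second saturated. After 90/5 2 hr it read 14.10, 14.88, 14.19 and 14.67, the last saturated. The unstimulated range was overlapped by all 4 stimulated conditions.

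Rcan1, the inhibitor with the NFAT-responsive internal start, is read by 1 probe at chr16:92392763-92392822 (mm9, minus strand), so transcripts from its different starts were not told apart. It was highest in unstimulated cultures, at 12.65, 12.86, 12.63 and 12.79. It read 12.11, 12.33, 12.28 and 12.61 after 18/1 2 hr, 11.41 and 11.35 (array 5) and 12.01 and 12.07 (array 6) after 18/1 5 hr, and 12.27, 12.43, 11.53 and 12.48 after 90/5 5 hr. In each of these 3 conditions all 4 samples were below the lowest unstimulated one. After 90/5 2 hr it read 12.50, 12.71, 12.47 and 12.36, which overlaps the unstimulated samples and lies above all 18/1 5 hr samples on the same slide.

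Rcan2, the second inhibitor (chr17:44176406-44176465, mm9, plus strand), read 13.90, 13.85, 13.33 and 13.89 in unstimulated cultures, 13.50, 14.29, 13.26 and 13.32 after 18/1 2 hr and 13.41, 13.57, 13.67 and 13.48 after 90/5 5 hr, which overlap. After 18/1 5 hr it read 14.93 and 14.82 (array 5) and 15.00 and 14.66 (array 6), all above the unstimulated range, with both Cy5 spots saturated. After 90/5 2 hr the arrays differed, with 14.12 and 13.76 on array 7 and 14.90 and 14.81 on array 8, the last saturated. Rcan1 and Rcan2 thus lay on opposite sides of the unstimulated range in 18/1 5 hr.

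**Figure D2:**
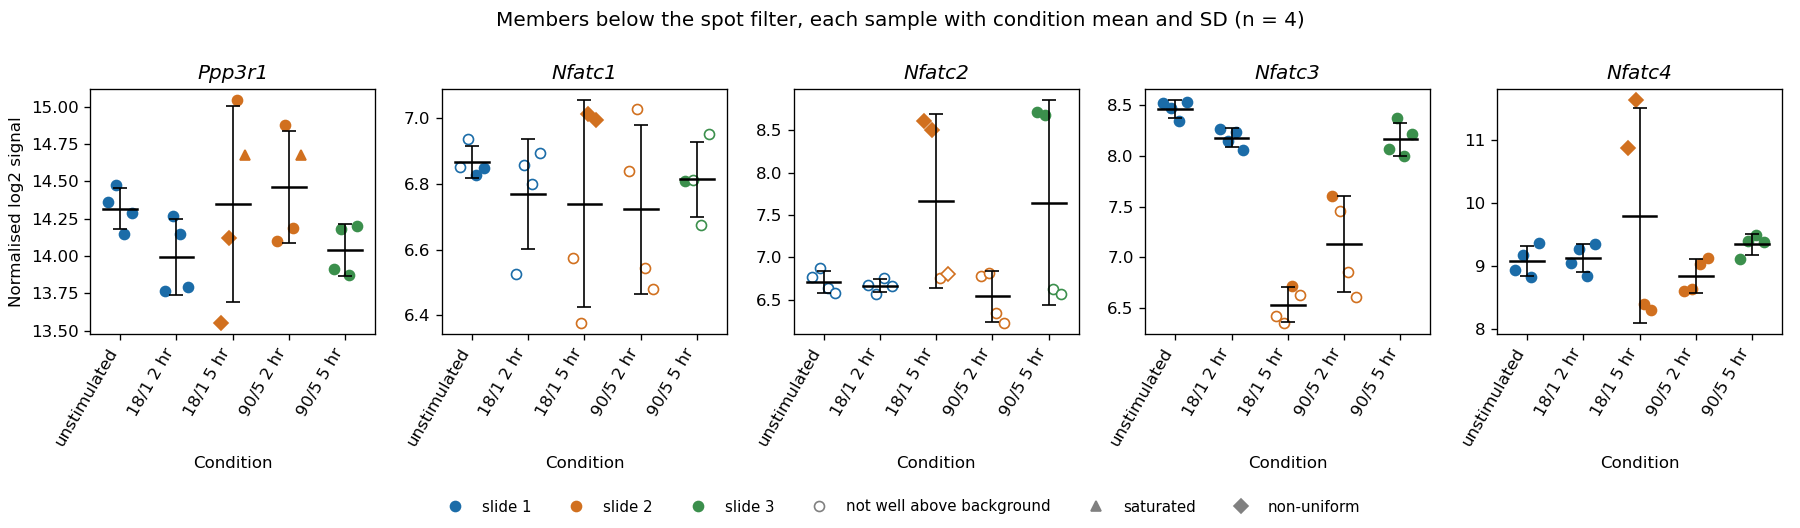
Normalized log2 signal (y axis) of the 5 members below the filter in each of the 20 samples, by condition (x axis, coloured by slide), with the condition mean and SD as bars, open points for spots not well above background, triangles for saturated and diamonds for non-uniform spots. Nfatc3 lies at 6.36 to 6.72 in 18/1 5 hr against 8.34 to 8.52 in unstimulated cultures, and the high values of Nfatc2 and Nfatc4 each sit on single arrays.

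Of the NFAT factors, only Nfatc3, a form expressed in neurons as well as lymphocytes, was called in the fit to all samples. Its brightest probe lies at chr8:108654316-108654375 (mm9, plus strand) and read 8.51, 8.47, 8.34 and 8.52 in unstimulated cultures, 8.26, 8.14, 8.23 and 8.06 after 18/1 2 hr and 8.07, 8.37, 7.996 and 8.21 after 90/5 5 hr. All of these spots were marked well above background. After 18/1 5 hr it read 6.43 and 6.36 (array 5) and 6.72 and 6.64 (array 6), and after 90/5 2 hr 7.60 and 7.46 (array 7) and 6.86 and 6.61 (array 8). In each of these 2 conditions only 1 of 4 spots was marked well above background, so the values there are close to the lowest the arrays could measure. The 2 other Nfatc3 probes, at chr8:108643263-108643322 and chr8:108615965-108616024, were near background throughout, with condition means of 6.76 to 7.10 and 6.46 to 6.83, and were not called in any comparison with unstimulated cultures.

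Nfatc4, a form prominent in the nervous system (chr14:56452542-56452601, mm9, plus strand), was well above background in all 20 samples. It read 8.94, 9.18, 8.84 and 9.37 in unstimulated cultures, 9.06, 9.27, 8.85 and 9.35 after 18/1 2 hr, 8.61, 8.64, 9.03 and 9.13 after 90/5 2 hr, and 9.12, 9.39, 9.50 and 9.38 after 90/5 5 hr. These conditions overlapped. After 18/1 5 hr the arrays gave opposite answers, 10.86 and 11.63 on array 5, where both spots were non-uniform, and 8.40 and 8.31 on array 6, below the unstimulated range. Without array 5 the difference of 18/1 5 hr from unstimulated cultures turned from 0.72 to -0.73 (limma adjusted p = 0.0445), and without array 6 it was 2.17 (limma adjusted p = 1.72e-05), so the direction for Nfatc4 in this condition is that of the array kept.

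Nfatc2, the form first known from T cells, showed the same kind of split. Its brightest probe lies at chr2:168361757-168361816 (mm9, minus strand) and is printed because its signal appeared on single arrays only.
Nfatc2 probe: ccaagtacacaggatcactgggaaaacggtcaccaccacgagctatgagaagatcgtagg
It read 6.58 to 6.87 in unstimulated cultures, 6.57 to 6.75 after 18/1 2 hr and 6.22 to 6.82 after 90/5 2 hr, and none of these 12 spots was well above background. After 18/1 5 hr it read 8.61 and 8.50 on array 5, where both spots were non-uniform, but 6.76 and 6.80 on array 6. After 90/5 5 hr it read 8.71 and 8.68 on array 9 but 6.62 and 6.57 on array 10. The fitted log2 differences from unstimulated cultures, whose signals were at background level, were 0.95 in 18/1 5 hr and 0.93 in 90/5 5 hr, neither of them called (limma adjusted p = 0.167 and 1). Only 2 of 4 spots were well above background in each of these conditions, so no fold is given. With array 5 as the only 18/1 5 hr array, the fitted difference was 1.84 (limma adjusted p = 7.67e-03), and with array 6 as the only one it was 0.065. In 90/5 5 hr it was 1.98 with array 9 as the only array and -0.12 with array 10 as the only one, neither called (limma adjusted p = 0.103 and 1). The second Nfatc2 probe, at chr2:168301974-168302033, had condition means of 6.60 to 7.01, of which those of 90/5 5 hr and 18/1 5 hr were the highest. In 18/1 5 hr it read 6.95 and 7.53 on array 5 and 6.72 and 6.62 on array 6, and in 90/5 5 hr it read 6.96 to 7.05 over both arrays. Nfatc1, the form whose own transcription NFAT drives in lymphocytes, had 2 probes at 6.38 to 7.03 and 6.44 to 7.11 in all samples. The first was well above background in 5 of the 20 and the second in 1, so Nfatc1 was not measurable at this sensitivity and no difference is given.

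The question of the design was whether the pattern of firing, with the number of action potentials held equal, changes expression. After 18/1 for 2 hr, no calcineurin or NFAT gene was called against unstimulated cultures. Rcan1 was lower in all 4 samples by 0.40 on the log2 scale (95% interval -0.96 to 0.17) and Nfatc3 in all 4 by 0.29 (-0.82 to 0.25), each with a limma adjusted p of 1. Both values are differences within slide 1. For the other members clear of background the differences were between -0.32 (Ppp3r1) and 0.05 (Nfatc4). In this comparison limma called 0.0193% of all genes past the filter and 0.00662% without it, and none of the 10 members had an unadjusted p below 0.05, where 0.888% and 0.615% of all genes had.

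After 18/1 for 5 hr, 3 of the 5 members past the filter were called, 2 higher and 1 lower. Ppp3cb rose at least 3.23-fold (log2 difference 1.69, SE 0.31, limma adjusted p = 2.51e-04) and Rcan2 at least 2.16-fold (1.11, SE 0.33, limma adjusted p = 9.66e-03), lower bounds because 2 of the 4 spots of 18/1 5 hr were saturated for each. Rcan1 fell 2.03-fold (log2 difference -1.02, SE 0.27, limma adjusted p = 4.98e-03). Ppp3cc differed by 0.09, as did Ppp3ca with its saturated spots at their values, and neither was called. In this comparison 44.4% of all genes past the filter were called, 15% higher and 29.5% lower, so 3 of 5 members is close to what all genes show. The median difference was 0.09 over the 5 members and -0.23 over all genes past the filter.

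In the same comparison without the filter, Nfatc3 was the 1 called of the 5 dimmer or non-uniform members. It fell at least 3.30-fold (fitted log2 difference -1.93, SE 0.26, limma adjusted p = 1.09e-04), where 25.7% of all genes were called. The bound takes each spot not well above background at no less than the lowest signal that was well above it on that array and colour. This bound and those for saturated spots leave out the spread between samples. Ppp3r1 differed by 0.03 and Nfatc4 by 0.72, neither of them called. The call for Ppp3cb held when any sample or array was left out, between 1.56 and 1.82, and that for Nfatc3 between -2.07 and -1.78. The call for Rcan1 was lost without array 1 (-0.998, limma adjusted p = 0.0567) and that for Rcan2 without array 2 (0.97, limma adjusted p = 0.091). The Rcan2 call was also lost with no spot filter (1.11, limma adjusted p = 0.0579). Centring the arrays on their medians alone put the median difference of all genes past the filter at -0.81 in this comparison, in place of -0.23. It gave the same direction for Ppp3cb, Rcan1, Rcan2 and Nfatc3, but the call for Rcan2 was lost (0.92, limma adjusted p = 0.0517) and a fit to Ppp3ca gave -1.22 (limma adjusted p = 8.06e-03), a value with no measured direction since all 4 spots of 18/1 5 hr were saturated.

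After 90/5 for 2 hr, none of the 5 members past the filter was called, and Nfatc3 fell. Ppp3cb was higher in all 4 samples by 0.98 on the log2 scale (95% interval 0.34 to 1.63, limma adjusted p = 0.0587). Ppp3ca differed by -0.63 (-1.29 to 0.04, limma adjusted p = 0.249), with 2 of its 4 spots saturated, so that the true difference may be smaller. The fitted difference of Rcan2 was 0.66 with 1 of 4 spots saturated and taken at its value (limma adjusted p = 0.239), and Rcan1 differed by -0.22, both with overlapping samples. Of all genes past the filter 6.97% were called. Ppp3cb, 1 of the 5, had an unadjusted p below 0.05, as had 22.9% of all genes past the filter. Array 8 gave the higher signals of both genes: without array 7 Ppp3cb differed by 1.396 (limma adjusted p = 3.15e-03) and Rcan2 by 1.11 with 1 of its 2 spots left saturated (limma adjusted p = 0.0165), where 27% of all genes past the filter were called, and without array 8 Ppp3cb differed by 0.57 (limma adjusted p = 0.54) and Rcan2 by 0.20, neither of them called, where 1.75% were. Ppp3cb was also called, at the same 0.98, without array 5 or 6 of 18/1 5 hr (limma adjusted p = 0.0232 and 0.0193), which hold neither condition, and without 1 sample of either. It was called at 1.12 without the Cy3 sample of array 7 (limma adjusted p = 0.0279).

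Nfatc3 fell at least 2.10-fold after 90/5 for 2 hr (fitted log2 difference -1.33, SE 0.26, limma adjusted p = 0.0142), where 1.63% of all genes were called without the filter. All 4 samples were below all unstimulated samples. The call was lost without array 1, 2 or 8 (limma adjusted p = 0.275, 0.197 and 0.0614), while the difference stayed between -1.72 and -0.93 in all leave-outs. Nfatc4 differed by -0.23 and Ppp3r1 by 0.14.

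After 90/5 for 5 hr, no member was called, in a comparison in which limma called 0.0676% of all genes past the filter and 0.0563% without it. All 4 Ppp3cb samples were below the unstimulated ones, by 0.67 on the log2 scale (95% interval -1.32 to -0.03), as were all 4 Rcan1 samples, by 0.55 (-1.12 to 0.02), each with a limma adjusted p of 1. Without array 10 the value for Ppp3cb was -0.35, and without replicate 3 of 90/5 5 hr that for Rcan1 was -0.35. Ppp3cb was the 1 member with an unadjusted p below 0.05, which 3.69% of all genes past the filter and 2.86% without it had. Nfatc3 differed by -0.30 and Rcan2 by -0.21. Fitted without the samples of slide 2, this comparison called 257 genes past the filter in place of 7, and Ppp3cb (limma adjusted p = 0.101) and Rcan1 (limma adjusted p = 0.0972) were still not called.

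**Figure D3:**
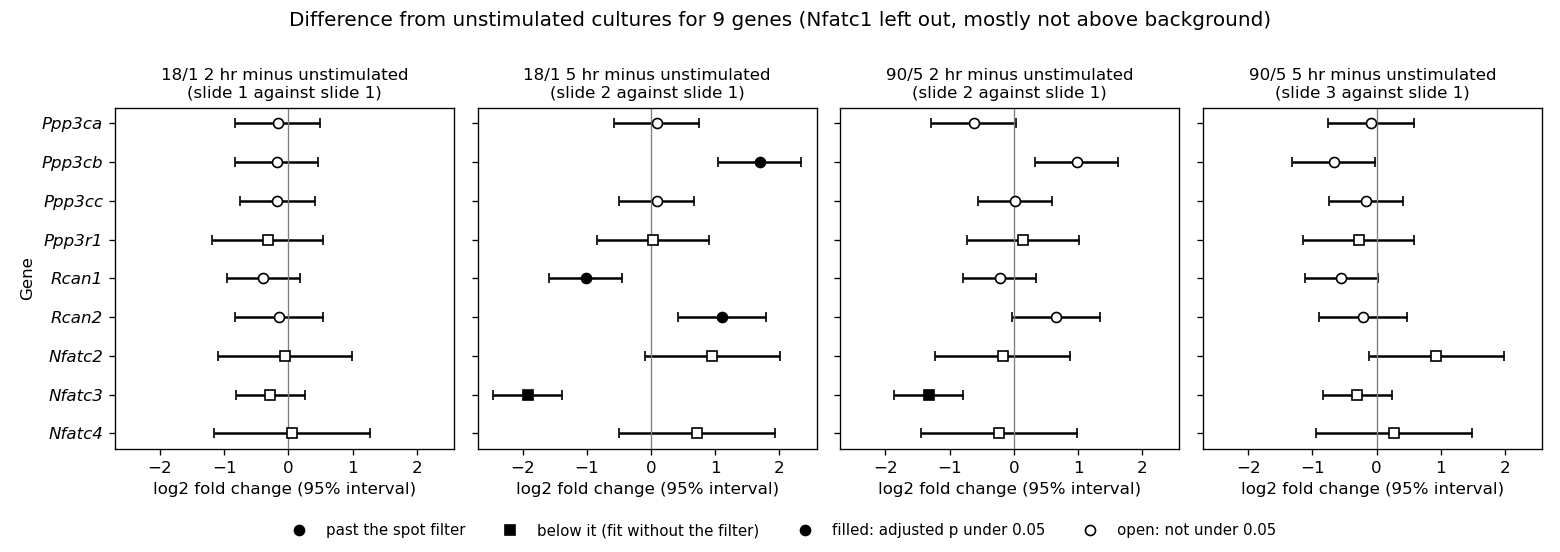
Log2 difference of each stimulated condition from unstimulated cultures (x axis, with 95% interval) for 9 of the genes (y axis, without Nfatc1), with the slides compared in each panel title. The interval of Ppp3cb lies above 0 in 18/1 5 hr and 90/5 2 hr and below 0 in 90/5 5 hr, and that of Nfatc3 lies below 0 in both conditions of slide 2.

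The 18/1 and 90/5 patterns were then set against each other at the same time. Ppp3cb was higher in 90/5 at 2 hr and lower in 90/5 at 5 hr. At 2 hr Ppp3cb was 2.25-fold higher in 90/5 than in 18/1 (log2 difference 1.17, limma adjusted p = 0.0313), the 1 call of 5 members where 4.96% of all genes past the filter were called. This call was lost without array 1, 2, 3, 4, 8 or 10, at differences of 0.755 (array 8, limma adjusted p = 0.441) to 1.26 (array 4, limma adjusted p = 0.168). It was also lost without the Cy5 sample of array 8, replicate 1 or 4 of 18/1 2 hr, or replicate 4 of 90/5 5 hr. The fitted difference of Rcan2 was 0.80 with 1 of 4 spots of 90/5 2 hr saturated (limma adjusted p = 0.172). Without array 7, with 1 of the 2 spots left saturated, it was 1.26 (limma adjusted p = 8.57e-03), where 24.6% of all genes past the filter were called, but it was 0.35 without array 8 (limma adjusted p = 0.95) and 0.50 without array 4. Nfatc3 was at least 1.72-fold lower, with 1 of 4 spots of 90/5 2 hr well above background (fitted log2 difference -1.04, limma adjusted p = 0.0532), where 1.32% of all genes were called without the filter. It was called without array 5, 6 or 7 (limma adjusted p = 0.0117, 9.8e-03 and 6.23e-04), where 7.56%, 7.82% and 18.1% of all genes were called without the filter, and without 1 sample of array 7 or replicate 2 of 90/5 5 hr. Without array 8 the fitted difference was -0.64 (limma adjusted p = 0.317).

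At 5 hr Ppp3cb was at least 5.14-fold lower in 90/5 than in 18/1 (log2 difference -2.36, SE 0.31, limma adjusted p = 8.5e-06) and Rcan2 was at least 2.49-fold lower (-1.32, SE 0.33, limma adjusted p = 2.89e-03). Nfatc3 was at least 2.68-fold higher (fitted log2 difference 1.63, SE 0.26, limma adjusted p = 2.89e-04). For each of these 3 genes no sample of one pattern overlapped the other, for which no share over all genes is given here. In this comparison 45.4% of all genes past the filter and 27.2% of all genes without it were called, so that 2 of 5 and 1 of 5 members are no more than the whole array shows. Rcan1 differed by 0.47 and was not called (limma adjusted p = 0.171), but it was called without array 6 (0.80, limma adjusted p = 0.016) and without replicate 3 of 90/5 5 hr (0.67, limma adjusted p = 0.0239). It was 0.14 without array 5 (limma adjusted p = 0.709), 0.295 without array 9 and 0.299 without replicate 4 of 90/5 5 hr. The calls for Ppp3cb, Rcan2 and Nfatc3 held in all leave-outs.

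From 2 hr to 5 hr Ppp3cb rose in 18/1 and fell in 90/5, and Nfatc3 did the reverse. Differences that involve slide 2 are fitted values here too, with saturated spots for Ppp3cb in 18/1 and for Rcan2 and dim spots for Nfatc3. In 18/1, Ppp3cb rose by 1.88 on the log2 scale (limma adjusted p = 1.09e-04) and Rcan2 by 1.26 (limma adjusted p = 4.4e-03), and Nfatc3 fell by 1.64 (at least 2.71-fold, limma adjusted p = 3.63e-04), while 44% of all genes past the filter and 25.4% without it were called. The Rcan2 call was lost without array 4 (0.95, limma adjusted p = 0.114). Rcan1 was lower at 5 hr in all 4 samples by 0.63 and not called (limma adjusted p = 0.0686), while it was called without array 6 (-0.955, limma adjusted p = 5.35e-03) and without array 7, 8 or 10 (limma adjusted p = 0.0458, 0.0383 and 0.0445), as well as without 1 sample of array 6 or replicate 3 of 90/5 5 hr. Without array 5 it was -0.30 (limma adjusted p = 0.401). In 90/5, Ppp3cb fell by 1.65 (limma adjusted p = 1.56e-03) and Nfatc3 rose by 1.03 (at least 1.71-fold, limma adjusted p = 0.0361), with 8.96% of all genes past the filter and 3.09% without it called. The Ppp3cb call was lost without array 10 (-1.34, limma adjusted p = 0.0925), and that for Nfatc3 without any of arrays 1, 2, 3, 4, 8, 9 and 10, at 0.63 without array 8 (limma adjusted p = 0.254). Rcan2 was lower at 5 hr in all 4 samples by 0.87 and not called (limma adjusted p = 0.108), while it was called without array 6 (limma adjusted p = 0.0476) or array 7 (-1.32, limma adjusted p = 5.67e-03) or without 1 sample of array 7, and was -0.41, not called, without array 8.

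The difference between these time courses was tested itself, as the change from 2 hr to 5 hr in 90/5 minus that in 18/1. It was -3.53 (SE 0.44, limma adjusted p = 3.47e-06) for Ppp3cb, -2.12 (SE 0.47, limma adjusted p = 1.06e-03) for Rcan2 and 2.67 (SE 0.36, limma adjusted p = 8.31e-05) for Nfatc3, and these calls held in all leave-outs. Ppp3ca (0.29, from saturated spots in part), Ppp3cc (-0.44) and Rcan1 (0.29) were not called, but with median centring Ppp3ca was (1.57, limma adjusted p = 0.015). Ppp3r1 (-0.78) was not called either, but it was called without array 5 (-1.29, limma adjusted p = 0.0396) and with array quality weights (-1.35, limma adjusted p = 0.0131). In this test 44.8% of all genes past the filter and 26.8% without it were called. Both terms of the test set a condition on slide 2 against a condition on another slide, with slide 2 holding the 5 hr time in 18/1 and the 2 hr time in 90/5, so a slide difference adds to it and cannot be told apart from it.

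Within slide 2, 90/5 2 hr could be set against 18/1 5 hr, which differ in both pattern and time. None of the 10 genes was called, where 12.9% of all genes past the filter and 6.24% without it were. The nearest to a call was Rcan1, higher in all 4 samples of 90/5 2 hr by 0.80 (95% interval 0.23 to 1.37, limma adjusted p = 0.056). The fitted value for Ppp3ca was -0.71 (limma adjusted p = 0.137), and as 6 of its 8 spots were saturated it gives neither a size nor a direction. Ppp3cb differed by -0.71 (limma adjusted p = 0.126), Rcan2 by -0.45 (limma adjusted p = 0.366) and Nfatc3 by 0.60 (limma adjusted p = 0.164), with saturated spots for the first pair and only 1 of 4 spots well above background in each condition for Nfatc3. Single arrays changed these calls. Without array 8, limma called all 4 of Ppp3cb (-1.12, adjusted p = 0.0102), Rcan2 (-0.91, adjusted p = 0.042), Rcan1 (0.90, adjusted p = 0.0263) and Nfatc3 (0.996, adjusted p = 6.62e-03), and without array 7 it called none of them, at -0.296 for Ppp3cb, 0.003 for Rcan2 and 0.20 for Nfatc3. The value for Rcan1 was 0.47 without array 5. Of all genes past the filter and without it, 33.5% and 17.8% were called without array 8, and 0.55% and 7.25% without array 7. Without array 6, where 34.4% and 29.4% were called, limma called Rcan1 (1.13, adjusted p = 3.31e-03), Nfatc3 (0.74, adjusted p = 0.047), Nfatc2 (-2.02, adjusted p = 6.37e-03) and Nfatc4 (-2.40, adjusted p = 8.48e-06), with array 5 as the only 18/1 5 hr array, and without array 10, where 10.4% past the filter were called, it called Rcan1 (adjusted p = 0.042). Rcan1 was also called without 1 sample of array 6 or 8 or replicate 3 of 90/5 5 hr. In the fit to all samples, 3 of 5 members past the filter and 2 of 5 below it had an unadjusted p below 0.05, against 30.6% of all genes past the filter and 23.9% without it.

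The conditions were ordered by their means for each member. For Ppp3cb the order was 18/1 5 hr, 90/5 2 hr, unstimulated, 18/1 2 hr and 90/5 5 hr, and only 90/5 2 hr and unstimulated were neighbours with no overlap. For Nfatc3 the order was unstimulated, 18/1 2 hr, 90/5 5 hr, 90/5 2 hr and 18/1 5 hr, with no overlap between the first pair and between 90/5 5 hr and 90/5 2 hr. In 90/5 2 hr only 1 of 4 Nfatc3 spots was well above background. For the 8 other members every pair of neighbours overlapped, so that 1 of 5 members past the filter and 1 of 5 below it had a pair that did not, against 28% of all genes past the filter and 31.3% without it.

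Genes whose signals ran most alike over the 20 samples were taken as a description, since samples share arrays and slides. They were Tacc1 (Pearson r = 0.962) and LOC100503228 (0.961) for Ppp3cb, Galnt10 (0.933) and Nudt6 (0.927) for Rcan2, and Tbc1d2b (0.903) and a transcript without a gene symbol (0.942) for Rcan1. For Ppp3ca they were Rab6 (0.862) and Tpt1 (0.849), and for Ppp3cc Ggnbp2 (0.808) and Mtmr7 (0.788).

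The genes that surround the pathway were taken as lists: 86 of them were on the array and 46 passed the filter. In 18/1 2 hr only Nr4a1, listed as a check of stimulation, was called. In 18/1 5 hr 9 were higher and 6 lower of the 46, against 15% higher and 29.5% lower of all genes, and 1 of the 9 was Nr4a1. With median centring 8.73% of all called genes were higher in this comparison, in place of 33.7%. The median difference of the 46 was -0.07 and that of all genes -0.23. Of 13 calcineurin substrates other than NFAT, 3 were higher and 1 lower. Mef2a, a transcription factor that calcineurin activates, rose by 2.24 (limma adjusted p = 1.33e-05). Of 8 genes reported as NFAT or calcineurin targets, 2 were higher and 1 lower, and the neurotrophin gene Bdnf rose by 2.37 (limma adjusted p = 7.57e-06). Of 6 genes of store-operated calcium entry, the route that refills calcium stores, 1 was higher and 1 lower, and the channel gene Orai1 fell by 1.81 (limma adjusted p = 5.51e-06). Of 9 NFAT kinases and partners, 1 was higher and 2 lower. Csnk1a1, a kinase that returns NFAT to its phosphorylated state, rose by 1.64 (limma adjusted p = 8.55e-04). Its mean in 18/1 5 hr was 14.89. Ppp3cb spots at 14.57 were saturated there, but a Ppp3cb spot at 14.74 and a Ppp3r1 spot at 15.04 were not. Whether the Csnk1a1 spots were saturated is not given here, and if they were, the true rise may be larger. Of 9 calcineurin regulators and anchors, 1 was higher and 1 lower.

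In 90/5 2 hr 6 of the 46 were higher and 0 lower, against 3.58% higher and 3.39% lower of all genes. Among all called genes 51.4% were higher, and 75.1% with median centring, 80.5% with array means and 33.4% without saturated probes. Of the 6, 2 were the checks of stimulation Nr4a1 and Egr1. The rest included Mef2a (1.91, limma adjusted p = 4.42e-04), Bin1, a membrane-bending partner of dynamin (1.16, limma adjusted p = 0.0378), and Calm3, 1 of the calmodulin genes (1.16, limma adjusted p = 0.0257). Bdnf rose as well (1.19, limma adjusted p = 0.0192). In 90/5 5 hr the 2 called were Nr4a1 and Egr1, both checks of stimulation. For Mef2a, Bin1 and Calm3 the difference between the time courses of the patterns was -4.44, -2.75 and -3.05 (limma adjusted p = 1.32e-07, 1.08e-04 and 1.68e-05), and all 3 were high in both conditions of slide 2. Bin1 and Calm3 had means of 15.3 to 15.8 there, where Ppp3ca spots at 15.02 and 15.37 were saturated. Whether the spots of Bin1 and Calm3 were saturated is not given here, and if they were, their true differences that involve slide 2 may be larger. Within slide 2, Orai1 was 1.37 higher in 90/5 2 hr than in 18/1 5 hr (limma adjusted p = 1.78e-03), and Synj1, a phosphatase of vesicle recycling, and Bdnf were lower by 1.34 and 1.19 (limma adjusted p = 0.0212 and 0.016). Bdnf was thus called between those conditions on the same slide, where no calcineurin or NFAT gene was. With array means in place of samples, 0 genes past the filter were called in this comparison, so the calls for Orai1, Synj1 and Bdnf were lost.

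**Figure D4:**
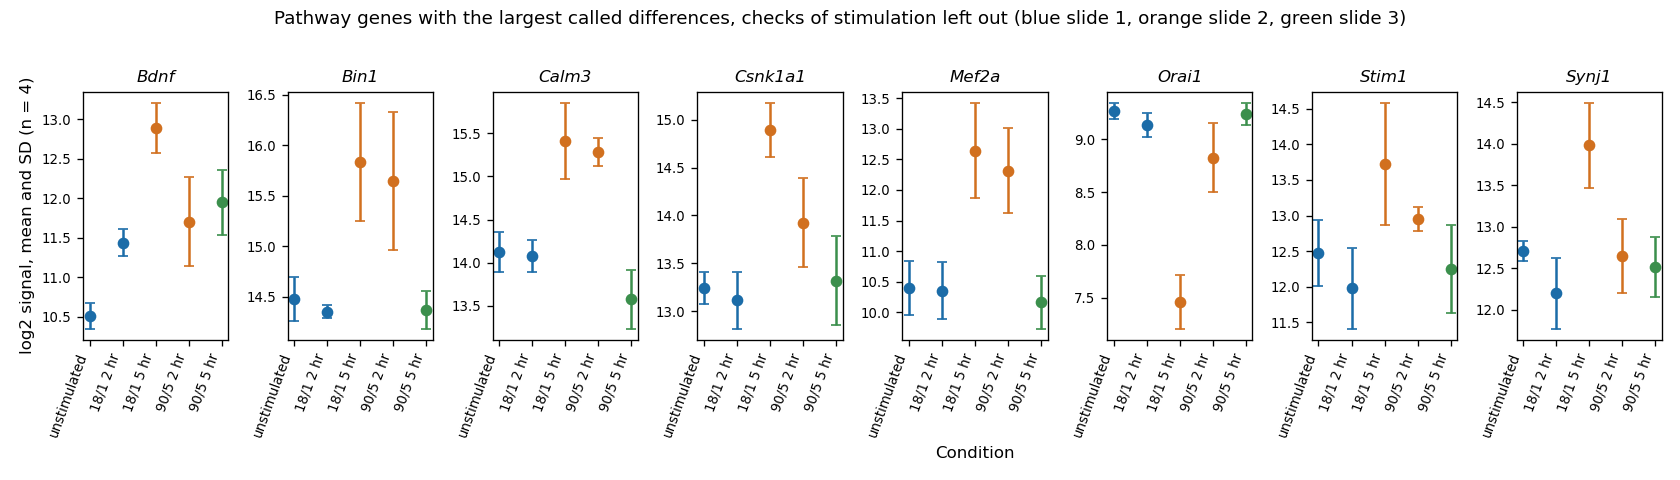
Mean normalized log2 signal with SD (y axis, 4 samples per condition) of 8 pathway genes, by condition (x axis, coloured by slide). They are the genes with the largest called differences in each comparison, at most 4 from each, with the checks of stimulation left out. Mef2a, Bin1 and Calm3 are high in both conditions of slide 2, Bdnf is above its unstimulated mean of 10.5 in all 4 stimulated conditions, and Orai1 is at 7.46 in 18/1 5 hr against 9.27 in unstimulated cultures.

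Markers of other cells moved with some of these conditions. The summed signal of 6 fibroblast markers, of which 5 were bright in all samples, was 16.0 to 16.2 on the log2 scale in 18/1 5 hr against 14.1 to 15.4 in unstimulated cultures, 14.4 to 16.3 in 90/5 2 hr and 14.4 to 15.4 in 90/5 5 hr. That of 3 endothelial markers, 2 of them bright in all samples, was 9.19 to 9.73 in 18/1 5 hr and 9.72 to 10.9 in 90/5 2 hr against 11.1 to 11.7 in unstimulated cultures, and higher than these in 90/5 5 hr, at 11.8 to 12.5. Of 10 spinal cord markers 0 were bright in all samples, and the median spot of each was 1.3 to 3 times its background. Their sums, which rest on these dim spots, were 10.8 to 12.2 in 18/1 5 hr, 10.3 to 11.02 in 90/5 2 hr and 10.6 to 10.9 in 90/5 5 hr against 10.4 to 10.5 in unstimulated cultures. Sums of 13 sensory neuron, 9 glial and 5 macrophage markers overlapped between all conditions. The part of these shifts in the differences of Ppp3cb, Rcan1, Rcan2 and Nfatc3 was not tested, and in bulk RNA fewer cells of a type and less RNA per cell cannot be told apart.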

How the data were processed

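The authors deposited, for each spot and colour, the mean intensity and the median intensity of the local background on a linear scale, not normalized, as extracted with Agilent Feature Extraction 10.7.1.1 (slide 1) or 10.7.3.1 (slides 2 and 3), with deposited marks of spots that were saturated, of uneven signal (non-uniform), or clear of the background (well above background). The other 72 per-colour columns of each array were not used. Gene names came from the later of 2 deposited annotations, which name 8333 of 44397 spots differently. Probe positions are on mm9, as the files give them.

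limma 3.58.1 was run in R 4.3.3, and figures were drawn with matplotlib 3.10.9. Background was corrected by normexp with an offset of 50, colours were normalized by loess within arrays (control spots at weight 0) and arrays by Aquantile, giving log2 signals. Following the methods, spots had to be at least 2 times their background and not non-uniform in all 20 samples. Spots of a probe were averaged, and each gene took its brightest probe. limma fitted 5 condition means and colour, with array as a random block (correlation 0.529, or 0.74 without the filter), empirical Bayes moderation and Benjamini-Hochberg adjustment over all genes of the fit at 0.05. Members below the filter came from the fit of all genes. The iterative normalization of the methods was not repeated, and the number of arrays limits the precision. The fit was tested on simulated data.

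Same-numbered samples of unstimulated and 18/1 2 hr cultures deviated together (correlations 0.411, 0.716, 0.464 and 0.641). For those of unstimulated and 90/5 5 hr cultures the correlations were 0.485, 0.124, 0.075 and -0.053, and the other conditions have no settled numbers. Same-numbered samples share a colour as well, and samples of unlike number were not compared, so pairing is not settled. The main fit did not use the numbers, which served as a block only in an alternative.

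All members were named, pathway genes by the largest called differences (at most 4 per comparison, besides the checks of stimulation), and for each member past the filter the 2 genes most alike. Members and lists were chosen with earlier results of these data known. The comparison within slide 2 and the alternatives for members below the filter were chosen after seeing the data. Alternatives were other background, normalization, filter, saturation, probe, colour and block settings, weights for array quality, fitting without slide 2 or only the conditions compared, a 1.4-fold minimum, the methods' t-test, and leaving out each sample and array.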

Additional observations from a re-analysis of the deposited data

Results flagged for a closer look

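The change from 2 hr to 5 hr differed between the 90/5 and 18/1 patterns for 3 genes, by a test of that difference in limma. It was -3.531 on the log2 scale for Ppp3cb (90/5 minus 18/1), -2.121 for Rcan2 and 2.667 for Nfatc3. These are 2 of 5 members past the filter and 1 of 5 below it. Of all genes, 44.8% past the filter and 26.8% without it were called in this test, so the members are no more than the whole array shows. Saturated spots enter the values of Ppp3cb and Rcan2, and spots not well above background that of Nfatc3. Each value sets slide 2 against slides 1 and 3, and slide cannot be told apart from pattern and time.

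Of 50 groups of 4 samples tested with Dixon's ratio, the gap of the most distant sample to its neighbour over the range of the group, 2 passed the limit, and chance gives about 1 in 20. In unstimulated cultures Ppp3cc in replicate 1 was at 12.23 against 12.10 for the next sample, a ratio of 0.966. Rcan2 in replicate 3 was at 13.33 against 13.85 for the next sample, a ratio of 0.917.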

How the results depend on the processing

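The calls for Ppp3cb in 18/1 5 hr, from 2 hr to 5 hr in 18/1, between patterns at 5 hr and between time courses, and the calls for Nfatc3 in the same comparisons, held in every alternative that kept their probe. A probe can be lost by construction: leaving out probes saturated in any sample removed Ppp3ca, Ppp3cb and Rcan2, and the background rule alone still removed Nfatc1, Nfatc2 and Nfatc3. For the rest, the cause of a change was not tested. With 2 arrays per condition a single array weighs heavily, and for Nfatc1, Nfatc2 and Nfatc3 signals near background limit what could be seen. The replicate block, over unstimulated, 18/1 2 hr and 90/5 5 hr cultures, called 0 members in both comparisons, past the filter and below it, and changed no call, and no other comparison has settled numbers. Leaving slide 2 out changed no count of members called in 18/1 2 hr and 90/5 5 hr, where it could be run, but took the calls among all genes past the filter from 2 to 6 and from 7 to 257.

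Counts past the filter are of 5 members. Calls among all genes past the filter moved under the same settings. With quality weights these rose from 2 to 1600 in 18/1 2 hr, from 722 to 1497 in 90/5 2 hr and from 7 to 2583 in 90/5 5 hr. In 90/5 2 hr they were 2300 with no array block and 2121 in the methods' t-test, but 515 with median centring and 205 with array means. In 90/5 5 hr they were 572 in that t-test. With no array block, median centring and quality weights, in that order, the share called was 33%, 46.9% and 9.79% within slide 2 (12.9% as reported), 59.9%, 57.5% and 56.1% between patterns at 5 hr (45.4%), 59%, 52.9% and 54.1% between times in 18/1 (44%), and 22.7%, 8.33% and 17.4% between times in 90/5 (8.96%). It was 17.6% between patterns at 2 hr with no array block (4.96%) and 50.2% between time courses with median centring (44.8%). With array means it was 0% within slide 2, 1.57% between patterns at 2 hr and 2.98% between times in 90/5. In the methods' t-test it was 16.6% within slide 2, and 47.6% and 17.2% between times in 18/1 and 90/5. In 18/1 2 hr, 0 were called, and 1 with weights for array quality. In 18/1 5 hr, 3 were called, 2 with no filter and 1 of the 2 left without saturated probes. In 90/5 2 hr, 0 were called, and 1 with median centring, 2 with no array block, 1 with quality weights and 1 in the methods' t-test. In 90/5 5 hr, 0 were called, and 2 with quality weights and 2 in the methods' t-test. Between patterns at 2 hr, 1 was called, 2 with no array block, and 0 with the filter met in 1 condition, no filter, no saturated probes, array means, only the conditions compared, and the methods' t-test with or without adjustment. Between patterns at 5 hr, 2 were called, 4 with median centring, 3 with no array block or quality weights and 0 without saturated probes. From 2 hr to 5 hr in 18/1, 2 were called, 4 with median centring, 3 with no array block, quality weights or the methods' t-test and 0 without saturated probes. In 90/5, 1 was called, 2 with no array block, quality weights or the methods' t-test, and 0 with that test adjusted or without saturated probes. Within slide 2, 0 were called, 3 with no array block, and 1 with median centring, quality weights or the methods' t-test. Between time courses, 2 were called, 3 with median centring and 0 without saturated probes. When single samples or arrays were left out, the counts were 0 to 0 in 18/1 2 hr, 2 to 3 in 18/1 5 hr, 0 to 2 in 90/5 2 hr, 0 to 0 in 90/5 5 hr, 0 to 2 and 2 to 3 between patterns at 2 hr and 5 hr, 1 to 3 and 0 to 2 between times in 18/1 and 90/5, 0 to 3 within slide 2 and 2 to 2 between time courses.

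Of the 5 members below the filter, 1 was called in 18/1 5 hr, 90/5 2 hr, between patterns at 5 hr, between times in each pattern and between time courses, and 0 of 2 in each of these with the background rule alone. For the alternatives in this paragraph, shares of all genes called without the filter are not given here. The counts are therefore not read as a result about the members. With quality weights the counts were 2 in 18/1 5 hr, 4 between patterns at 5 hr, 3 between times in 18/1, 3 between time courses, 1 in 90/5 5 hr and 1 within slide 2. In 90/5 2 hr and between times in 90/5, 0 were called with median centring, array means, only the conditions compared, and the methods' t-test adjusted, and in the latter also with no background subtraction, while the methods' t-test unadjusted called 2 there. Between patterns at 2 hr, 0 were called, and 1 with quantile normalization, the filter met in 1 condition, no colour term, no array block and the methods' t-test. Within slide 2, 0 were called, and 1 with no array block. Over leave-outs the counts were 0 to 0 in 18/1 2 hr, 1 to 3 in 18/1 5 hr, 0 to 1 in 90/5 2 hr, 0 to 0 in 90/5 5 hr, 0 to 1 and 1 to 2 between patterns at 2 hr and 5 hr, 1 to 3 and 0 to 1 between times in 18/1 and 90/5, 0 to 3 within slide 2 and 1 to 3 between time courses.

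Some fitted values changed sign. Median centring alone, which put the median difference of all genes in 18/1 5 hr against unstimulated cultures at -0.81 in place of -0.23, gave fitted values for Ppp3ca of opposite sign to those reported, -1.216 there, -1.113 between times in 18/1 and 1.253 between patterns at 5 hr. All 4 Ppp3ca spots of 18/1 5 hr were saturated, so these values have no measured direction. Without array 5, Nfatc4 turned to -0.728 in 18/1 5 hr, -0.778 between times in 18/1, 0.994 between patterns at 5 hr and 1.275 between time courses. Without array 6 it stayed in its direction, with calls, at 2.165, 2.115, -1.899 and -1.618 in the same order. Quality weights gave Nfatc4 -0.61, 0.703 and 1.117 in the last 3 of these and turned Nfatc2 to 1.439 between patterns at 5 hr.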
